A study of Mus musculus with 38 samples.

Results

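The ATP-binding cassette (ABC) genes were followed through chemotherapy and through tumor progression in mouse mammary cancer cells. They were taken as every gene whose name in the array annotation was Abc, a letter from a to g and a digit, which gave 49 of 28784 gene names and 93 of 41174 probes. The cells came from mice bitransgenic for MMTV-PyMT, in which the mouse mammary tumor virus promoter drives the polyoma middle T oncogene in mammary epithelium, and for green fluorescent protein (GFP) under an actin promoter. Hyperplasias of such donors were transplanted into cleared fat pads of FVB/n hosts, the strain given in the labels, and GFP-positive cells were sorted, so in both experiments all groups carry both transgenes and every host kept its own stroma and immune cells.

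In the chemotherapy experiment 6 untreated tumors, 6 residual tumors and 4 relapsed tumors were profiled. Treatment was TAC, a combination of docetaxel, doxorubicin and cyclophosphamide, begun 8 weeks after transplant and repeated every 21 days. Residual tumors were taken 10 days after dose 1 and relapsed tumors 10 days after dose 4. The labels call the relapsed tumors resistant, the residual tumors regressed and the untreated tumors control. The progression experiment, with no drug, held 5 adenomas (5-week outgrowths), 6 carcinomas (18-week outgrowths), 6 samples of disseminated cells sorted from the lungs of mice at 18 weeks, and 5 samples of lung metastases collected after the primary tumor had been removed. Each disseminated sample pooled the lungs of several mice. Nothing in the labels says that the other samples of a group came from separate animals, so the p-values measure the spread between these samples only.

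ABC proteins couple the breakdown of ATP to the movement of a substrate across a membrane. The B, C and G branches include the pumps known for drug efflux from tumor cells, of which P-glycoprotein (in the mouse encoded by Abcb1a and Abcb1b), MRP1 (Abcc1) and BCRP (Abcg2) are the best known, and docetaxel and doxorubicin are classical substrates of P-glycoprotein. The A and G branches also hold the exporters of cholesterol and phospholipid, other members sit in mitochondria, peroxisomes and lysosomes, and the E and F branches have no membrane domain and act at the ribosome.

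Every array compared a sample, labelled with Cy5, with a mouse reference RNA, labelled with Cy3, and each level given here is the log2 ratio of sample to reference. A level therefore has meaning only against the same probe on other arrays, and levels of different genes were not compared. Between 50.5% and 64.3% of probes were well above background on the chemotherapy arrays and between 48.4% and 78.9% on the progression arrays. The mammary epithelium markers (keratins, E-cadherin and others) had group medians of 3.29 for untreated, 3.46 for residual and 3.32 for relapsed tumors, and of 2.26 in adenomas, 2.63 in carcinomas, 0.75 in disseminated cells and 2.31 in metastases. On that marker mean adenomas spread from 1.84 to 2.73 and carcinomas from 1.40 to 2.68. Metastases spread from -0.49 to 3.51 and the disseminated samples from -0.60 to 2.46. The macrophage marker mean of the disseminated samples lay between 3.61 and 5.75, against -0.54 to 0.08 in adenomas. A single carcinoma, replicate 6, reached 4.98 on the macrophage mean where the next carcinoma was at 0.38. In bulk samples fewer cells of a type and less RNA per cell cannot be told apart.

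Not every ABC gene gave a signal. In the chemotherapy experiment 25 of the 49 genes were well above background on all 16 arrays, 11 on some and 13 on none. The 13 were Abca4, Abca8b, Abca13, Abca14, Abca15, Abca16, Abcb1a, Abcb5, Abcc2, Abcc6, Abcc10, Abcc12 and Abcd2. In the progression experiment 26 were above background on all 22 arrays, 17 on some and 6 on none, namely Abca13, Abca15, Abca16, Abcb1a, Abcb5 and Abcc10. No ABC probe was saturated. All 49 genes stayed in the tests, with no filter on low signal.

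Start-site sequence was available for 37 of the 49 genes, as the 300 bases from 250 before to 50 after the first listed start, from RefSeq on GRCm38.p6. Among those without an entry were Abca6, Abcb8, Abcc1, Abcc3, Abcc6, Abcc8, Abcd2, Abcd4, Abcg1 and Abcg4. The pair of P-glycoprotein genes is shown because Abcb1b was detected on every array and Abcb1a on none, and Abca1 and Abcc5 because they stand for the cholesterol exporters and conjugate pumps that were higher in disseminated cells. Capitals mark matches to the motifs searched, on either strand. These were GGGCGG (a GC box), AGGTCA (a nuclear receptor core site), CACGTG (an E-box), TATAAA and TGACNNNGC (the core of the antioxidant response element).
Abcb1a promoter, chr5:8566841-8567140, plus strand: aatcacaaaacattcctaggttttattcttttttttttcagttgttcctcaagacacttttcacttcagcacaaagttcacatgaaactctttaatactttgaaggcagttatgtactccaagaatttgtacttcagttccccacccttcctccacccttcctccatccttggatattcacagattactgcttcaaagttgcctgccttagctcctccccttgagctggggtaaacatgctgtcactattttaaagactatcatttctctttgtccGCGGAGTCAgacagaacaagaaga
Abcb1b promoter, chr5:8797897-8798196, plus strand: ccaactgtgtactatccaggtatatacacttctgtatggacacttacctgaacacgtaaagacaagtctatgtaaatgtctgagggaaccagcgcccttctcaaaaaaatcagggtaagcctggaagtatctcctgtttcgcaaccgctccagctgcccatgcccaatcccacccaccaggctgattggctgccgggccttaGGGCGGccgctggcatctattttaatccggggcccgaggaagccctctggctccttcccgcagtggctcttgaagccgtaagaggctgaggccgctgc
Abca1 promoter, chr4:53159846-53160145, minus strand: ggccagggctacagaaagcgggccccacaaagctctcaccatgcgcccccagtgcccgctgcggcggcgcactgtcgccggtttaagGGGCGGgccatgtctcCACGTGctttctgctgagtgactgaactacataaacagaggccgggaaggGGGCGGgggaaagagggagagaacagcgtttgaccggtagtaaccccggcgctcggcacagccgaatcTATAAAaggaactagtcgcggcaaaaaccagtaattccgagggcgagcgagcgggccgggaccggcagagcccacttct
Abcc5 promoter, chr16:20426345-20426644, minus strand: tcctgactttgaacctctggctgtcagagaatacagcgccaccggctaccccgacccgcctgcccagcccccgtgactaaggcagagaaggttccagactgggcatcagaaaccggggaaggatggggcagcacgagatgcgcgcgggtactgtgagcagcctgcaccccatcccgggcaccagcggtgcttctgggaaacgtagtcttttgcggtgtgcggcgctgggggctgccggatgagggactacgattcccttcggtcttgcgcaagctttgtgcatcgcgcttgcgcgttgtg
The Abcb1a window was 40.3% G and C and held 1 match, to TGACNNNGC on the opposite strand, while the Abcb1b window was 55% G and C and held 1 GC box. The Abca1 window, at 62.7%, held 2 GC boxes, 1 E-box and 1 TATAAA. The Abcc5 window, at 63%, held no match to these letters. Among the 37 ABC windows, GGGCGG was found in 17 (45.9%), against 35.9% of all 27025 windows of that length. CACGTG was found in 6 (16.2% against 7.24%), TATAAA in 6 (16.2% against 14.2%), AGGTCA in 5 (13.5% against 16%) and TGACNNNGC in 5 (13.5% against 12.5%). These are counts of the letters as written, sites with other letters were not counted, and no binding was measured.

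The first question was whether drug efflux pumps were expressed at a higher level in tumors that had relapsed under TAC. No ABC gene of the 49 passed the test in relapsed against untreated tumors, where 0.0104% of all genes were called (adjusted p below 0.05 and at least 2-fold). Abcb1b, one of the P-glycoprotein genes, and Abcg2 (BCRP) had differences near 0, and Abcc1 (MRP1), an exporter of glutathione conjugates, was 1.28-fold higher with no overlap between the groups but did not pass after adjustment over all genes. Abca7, a phospholipid transporter also tied to phagocytosis, was 1.54-fold higher and had the lowest p among the ABC genes, and did not pass either.

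Abcb1a was not well above background on any of the 16 arrays, so no change is given for it. For Abcb1b, untreated tumors lay between -3.07 and -2.16 with a median of -2.71, residual tumors between -2.97 and -2.28 with a median of -2.75, and relapsed tumors at -2.83, -2.89, -2.80 and -3.10. All 4 relapsed tumors sat inside or just under the range of the untreated tumors. The log2 difference of relapsed from untreated tumors was -0.20 (95% interval -0.56 to 0.15, limma adjusted p = 0.889).

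Abcc1 was at -1.36, -1.36, -1.23 and -1.46 in relapsed tumors and between -2.0 and -1.47 in untreated tumors, with a median of -1.69. The lowest relapsed tumor was just above the highest untreated tumor. The log2 difference was 0.35 (SE 0.12, 95% interval 0.11 to 0.60, limma adjusted p = 0.401). Abcc1 was the only ABC gene of the 49 whose groups did not overlap, where 1.66% of all genes did not, and a count of 1 is near that background. The other Abcc1 probes, both well above background on all 16 arrays, gave 0.03 and 0.03. The only slide that held both groups gave 0.51 for the probe used, from a single untreated tumor, replicate 6, and relapsed replicates 3 and 4.

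Abcg2 lay between -0.17 and 1.31 in untreated tumors, with a median of 0.19, and between -1.07 and 0.74 in residual tumors, with a median of -0.30. Relapsed tumors were at 0.19, -0.21, 0.25 and 0.44, within the untreated range but for 1 tumor a little under it. The log2 difference of relapsed from untreated was -0.13 (95% interval -0.81 to 0.55, limma adjusted p = 0.98), and that of residual from untreated was -0.49 (SE 0.29, adjusted p = 0.651). Taken gene by gene and for the probe used, these intervals did not reach a 2-fold rise of Abcb1b, Abcc1 or Abcg2 in relapsed tumors. They do not cover other probes, and Abcb1b and Abcg2 each had another probe above background on all 16 arrays. Relapsed and untreated tumors shared only 1 slide, so differences between slides are not covered either.

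**Figure D1:**
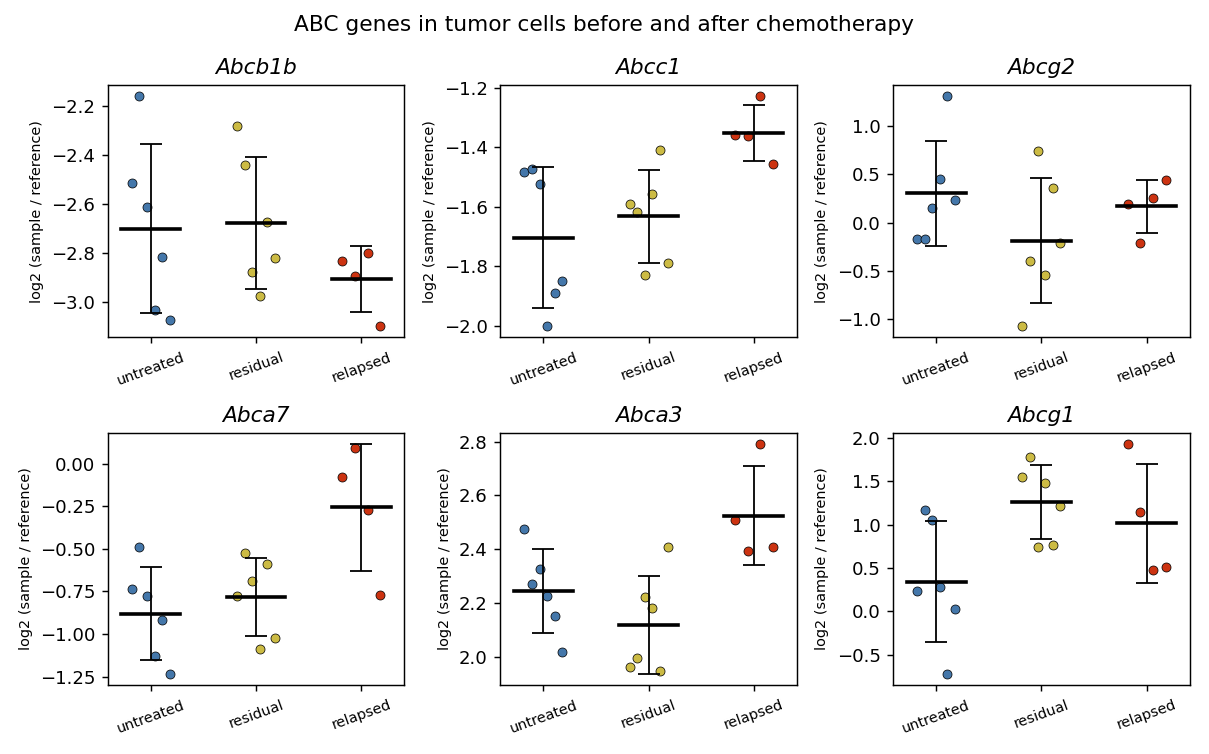
Levels of 6 ABC genes in the chemotherapy experiment. Each point is 1 tumor, the y axis is the log2 ratio of sample to reference on a scale of its own in each panel, and bars give the group mean ± SD for 6 untreated, 6 residual and 4 relapsed tumors. The relapsed tumors lie above every untreated tumor for Abcc1, and overlap them for the other genes shown.

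Abca7 was at -0.08, 0.09, -0.27 and -0.77 in relapsed tumors, against -1.23 to -0.49 (median -0.85) in untreated tumors. Relapsed replicate 4 fell within the untreated range and the other relapsed tumors were above it. The log2 difference was 0.62 (SE 0.17, limma adjusted p = 0.321). A further Abca7 probe, above background on 1 of 16 arrays, gave 0.25. Abca3, which loads surfactant lipid into lamellar bodies in the lung, was at 2.51, 2.39, 2.79 and 2.41 in relapsed and between 2.02 and 2.47 (median 2.25) in untreated tumors. Its log2 difference was 0.28 (SE 0.11, adjusted p = 0.526), and its other probes gave -0.04, 0.08 and 0.17.

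Across the 49 ABC genes the log2 differences of relapsed from untreated tumors ran from -0.41 to 0.67 with a median of 0.04, where the median of all genes was 0.01. By limma 0 of 49 passed, and 3 ABC genes had an unadjusted p below 0.05, where 7.64% of all genes did. All 3 were higher in relapsed tumors, where 4.57% of all genes were higher at that p. An equal-variance t-test of each gene also called 0.

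The question for residual tumors was whether the pumps were already higher in the cells left after 1 dose of TAC. No ABC gene passed, where 0.0938% of all genes were called. The cholesterol exporters Abcg1, which loads high-density lipoprotein, and Abca1, which loads apolipoprotein A-I, had the largest positive differences, 1.89-fold and 1.57-fold, and the 8 genes of the cholesterol and phospholipid group were all above 0 with a median log2 difference of 0.14, where 48.9% of all genes were above 0. Of these 8, Abcg5 was above background on 1 and Abcg8 on 3 of the 16 arrays, so the signs of both say little. The 4 mitochondrial genes were all below 0, with a median of -0.28.

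Abcg1 lay between -0.72 and 1.17 (median 0.26) in untreated tumors and between 0.75 and 1.79 (median 1.35) in residual tumors, and relapsed tumors were at 1.93, 1.14, 0.47 and 0.51. Residual tumors filled the upper end of the untreated range and reached beyond it. The log2 difference of residual from untreated was 0.92 (SE 0.32, 95% interval 0.24 to 1.59, limma adjusted p = 0.371). Abca1 lay between -0.33 and 1.12 (median 0.41) in untreated and between 0.47 and 1.82 (median 1.11) in residual tumors, with a difference of 0.65 (SE 0.31, adjusted p = 0.557). Relapsed tumors were at 1.81, 0.57, 0.56 and 0.39 for Abca1, so that replicate 1 stood apart. The only slide with both groups held a single untreated tumor, replicate 1, and residual replicates 1 and 2. There the differences of residual from untreated were 1.44 for Abcg1 and 1.49 for Abca1.

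The macrophage marker mean was -0.84 to 1.6 (median 0.19) in untreated tumors, -0.93 to 0.92 (median -0.49) in residual tumors and -1.26 to 0.33 (median -0.51) in relapsed tumors, so its median was lower in both treated groups. Abcc9, a sulfonylurea receptor that forms part of a potassium channel, was lower in residual tumors, unlike Abcg1 and Abca1. It lay between 0.57 and 2.07 (median 1.66) in untreated and between 0.26 and 1.65 (median 0.88) in residual tumors, a log2 difference of -0.54 (SE 0.25, limma adjusted p = 0.527). Over the 49 genes the differences of residual from untreated tumors ran from -0.54 to 0.92, with a median of 0.03 where that of all genes was -0.00. By limma 0 of 49 were called, 2 ABC genes had an unadjusted p below 0.05 (1 higher and 1 lower) against 9.11% of all genes, and the t-test called 0. A limma fit with the macrophage mean as a covariate, added once the values were known, called 0, where 0.198% of all genes were called. In that fit 10 ABC genes had an unadjusted p below 0.05, where 14.4% of all genes did. For relapsed tumors it gave 6 at that p against untreated (10.8% of all genes) and 6 against residual tumors (8.78%).

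Relapsed and residual tumors were compared to ask what differed between the cells that remained and those that grew back. No ABC gene of the 49 passed, where 0.208% of all genes were called. The 4 mitochondrial genes were all above 0, with a median log2 difference of 0.41, where 54.7% of all genes were above 0. Since residual tumors enter this comparison and the one with untreated tumors, with opposite sign, the values of those genes in both comparisons are not independent. Tap1, a subunit of the peptide transporter that feeds antigen presentation and an ABC protein under another name, was the only gene of the partner lists called in any chemotherapy comparison.

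Abcb6, a mitochondrial transporter tied to porphyrin handling, lay between 0.19 and 1.33 (median 0.61) in residual tumors and at 1.23, 1.57, 1.18 and 1.26 in relapsed tumors. Untreated tumors lay between 0.79 and 1.79, around the relapsed tumors. The log2 difference of relapsed from residual was 0.59 (SE 0.22, 95% interval 0.12 to 1.07, limma adjusted p = 0.512). Abca3 lay between 1.95 and 2.41 (median 2.09) in residual tumors and had a difference of 0.41 (SE 0.11, adjusted p = 0.248), the lowest adjusted p of any ABC gene in this experiment. Abca7 lay between -1.09 and -0.52 (median -0.73) in residual tumors, with a difference of 0.52 (SE 0.17, adjusted p = 0.403).

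Of the efflux pumps, Abcc1 differed by 0.28 (95% interval 0.03 to 0.53), Abcb1b by -0.23 (-0.59 to 0.13) and Abcg2 by 0.35 (-0.33 to 1.04), with limma adjusted p-values of 0.574, 0.817 and 0.854. Tap1 was between 1.44 and 2.09 in residual tumors, between -0.35 and 0.69 in relapsed tumors and between -0.15 and 1.56 in untreated tumors. Residual and relapsed tumors did not overlap, and Tap1 was lower in relapsed tumors by a log2 difference of -1.49 (SE 0.26, limma adjusted p = 0.0162). By limma 0 of the 49 ABC genes were called, and the t-test called 0. At an unadjusted p below 0.05 by limma there were 6 (12.2%), against 7.73% of all genes. All 6 were higher in relapsed tumors, where 4.45% of all genes were higher at that p. The relapsed and untreated tumors shared 1 slide, as did each other pair of chemotherapy groups, so group and slide were largely confounded.

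**Figure D2:**
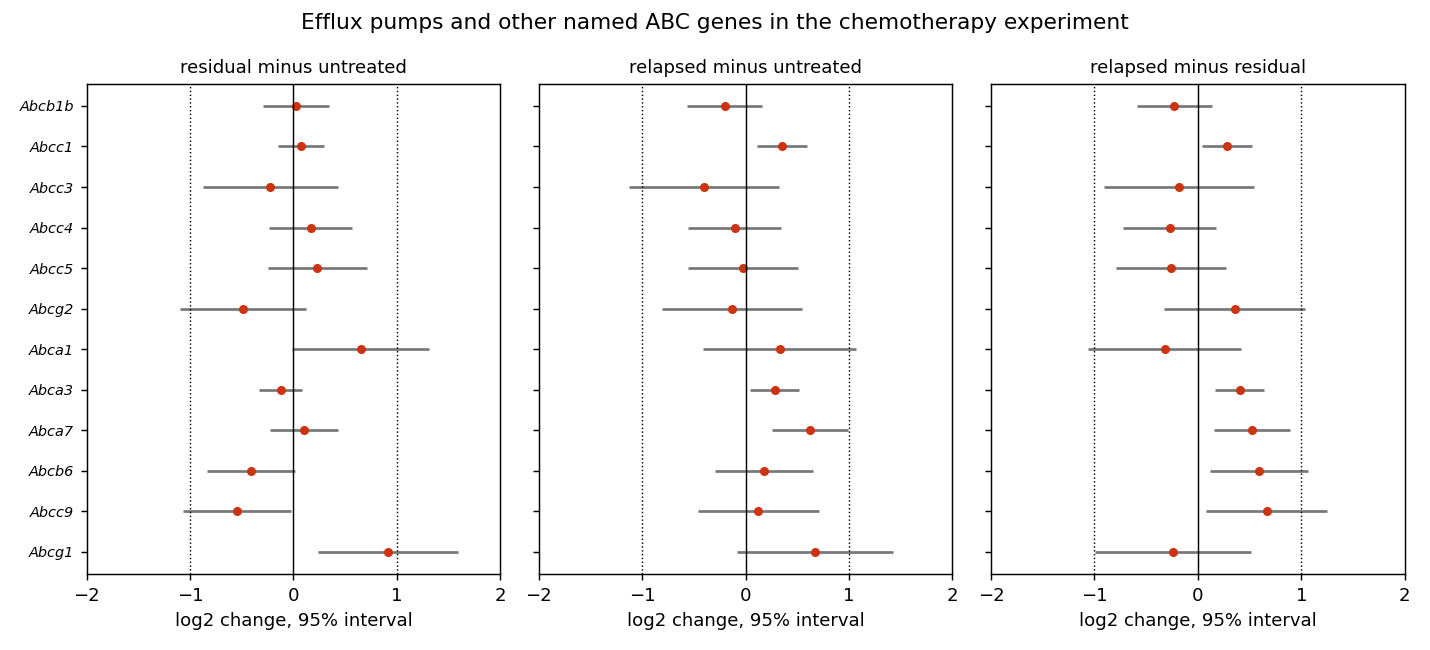
Log2 differences of 6 efflux and conjugate pumps (those detected on at least 1 array) and 6 other named ABC genes in the chemotherapy comparisons, with 95% intervals from the limma fit. The x axis is the log2 difference between group means, the solid line at 0 marks no difference and the dotted lines mark 2-fold. The interval of Abcc1 in relapsed against untreated tumors, 0.11 to 0.60, does not reach 0, and no gene passed after adjustment over all genes.

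The progression experiment asked how the cells changed from early to late primary tumors and on to the lung. From adenoma to carcinoma, the step from a 5-week to an 18-week outgrowth, 1 ABC gene of the 49 was called, where 3.29% of all genes were. Abcd4, which carries cobalamin out of lysosomes, was lower in carcinomas, with no overlap. None of the efflux pumps passed. Markers of other cells differed at this step too: 2 of 6 T and NK cell markers and 2 of 6 fibroblast markers were called lower, and 1 of 5 endothelial and 1 of 4 erythroid markers higher, where 2.15% of all genes were called lower and 1.15% higher. The T and NK mean was 0.62 to 1.47 in adenomas and -0.13 to 0.55 in carcinomas, and the fibroblast median was -2.58 and -3.87. Their part in the result was not tested.

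Abcd4 was at -0.28, -0.32, 0.40, -0.78 and -0.12 in adenomas and between -1.79 and -0.92 (median -1.42) in carcinomas. In metastases it was lower again, at -1.78, -2.0, -1.71, -2.20 and -2.12, while disseminated cells spread from -1.77 to -0.12 (median -0.90). Adenomas were the highest group and metastases lay at the low end of the carcinomas or below it. The log2 difference of carcinoma from adenoma was -1.17 (SE 0.25, a 2.25-fold fall, limma adjusted p = 0.00556), and it passed without any 1 of the 11 arrays. Carcinomas and adenomas shared no slide and no scan day, so slide and group cannot be told apart. Across the 49 genes the median difference was 0.06 where that of all genes was also 0.06. A further 4 ABC genes passed with changes under 2-fold, so 5 of 49 passed at any size where 11.7% of all genes did, among them Abcc9 at 0.42 and Abcf1, a translation factor, at -0.63. Of the partner genes, Npc1, which moves cholesterol out of lysosomes, rose by 1.18 and the channel pore Kcnj8 by 1.59, while Nr1h2, a liver X receptor, fell by 1.18, Gsr by 1.39 and Ggt1 by 1.28.

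Disseminated cells were then set against both kinds of primary tumor. Against adenomas 8 of the 49 were called higher and 2 lower, where 10.5% of all genes were called, and 5 of the 8 were efflux or conjugate pumps: Abcc1, Abcc3, Abcc4, Abcc5 and Abcb1b. The cholesterol exporters Abcg1 and Abca1 rose by 6.87-fold and 5.58-fold, and Abca7 rose as well. Abcb9, which carries peptides into lysosomes, and Abcb6 fell. Markers of macrophages, neutrophils, alveolar type 2 cells, endothelium and erythroid cells were higher in the same samples, as given beside the values below.

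Abcg1 was at 0.27, 0.47, -0.38, 0.17 and 0.46 in adenomas, between -0.50 and 2.14 (median -0.10) in carcinomas, and between 2.34 and 3.92 (median 2.87) in disseminated cells. The lowest disseminated sample was above every primary tumor, carcinoma replicate 6 included. The log2 difference from adenomas was 2.78 (SE 0.41, limma adjusted p = 0.000337) and that from carcinomas 2.72 (SE 0.39, adjusted p = 0.000113). Abca1 was at -0.37, -0.63, -1.14, -0.88 and -0.59 in adenomas, between -0.96 and 2.02 (median -0.41) in carcinomas and between 0.72 and 2.65 (median 1.90) in disseminated cells. Disseminated cells lay above all adenomas but overlapped carcinomas, through carcinoma replicate 6. Abca1 rose by 2.48 against adenomas (SE 0.55, adjusted p = 0.00443) and by 1.87 against carcinomas (SE 0.52, adjusted p = 0.0121).

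Abcc5 (MRP5), a pump for cyclic nucleotides and conjugates, was at -1.42, -1.20, -1.68, -0.83 and -1.48 in adenomas, between -1.53 and -0.86 (median -1.02) in carcinomas, and between 0.15 and 1.74 (median 1.24) in disseminated cells. No disseminated sample overlapped a primary tumor. It rose by 2.40 against adenomas (SE 0.36, limma adjusted p = 0.000363) and by 2.21 against carcinomas (SE 0.34, adjusted p = 0.0002). The other Abcc5 probes gave 2.31 and 2.30 against adenomas.

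Abcc1 was at -2.20, -2.42, -3.06, -3.08 and -2.50 in adenomas, between -2.71 and -1.70 (median -2.28) in carcinomas and between -1.73 and 0.03 (median -0.56) in disseminated cells. The disseminated samples were above all adenomas and touched the carcinomas only at replicate 6 of those. Abcc1 rose by 2.00 against adenomas (SE 0.34, limma adjusted p = 0.000941) and by 1.64 against carcinomas (SE 0.32, adjusted p = 0.00127). Its other probes, on chr16:14019972-14020031 and chr16:14020013-14020072 of mm7, gave 0.74 and 0.78 against adenomas, where the probe used, on chr16:14020966-14021025, gave 2.00. All 3 probes were well above background on the 22 arrays.

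Abcb1b was at -2.29, -2.26, -1.59, -2.30 and -2.88 in adenomas, between -3.63 and -1.33 (median -3.42) in carcinomas and between -1.61 and -0.06 (median -0.45) in disseminated cells. A single adenoma and carcinoma replicate 6 reached the disseminated range. It rose by 1.63 against adenomas (SE 0.47, limma adjusted p = 0.0202) and by 2.46 against carcinomas (SE 0.45, adjusted p = 0.000797). A further Abcb1b probe, detected on all 22 arrays, gave 0.86 against adenomas, and the call against adenomas was lost without adenoma replicate 5 (adjusted p = 0.0513) and with a block for replicate number (adjusted p = 0.0528). Abcb1a, the partner gene, was not well above background on any of the 22 arrays.

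Abcc4 (MRP4), which exports cyclic nucleotides and prostaglandins, was at -4.25, -2.46, -2.25, -2.60 and -3.99 in adenomas, of which 2 of 5 were well above background. Disseminated cells lay between -1.91 and 0.50 (median -0.89), and carcinomas between -4.30 and -0.56 (median -4.19) over 5 values, since 1 spot was an outlier and was left out. The rise was 2.28 against adenomas (SE 0.74, limma adjusted p = 0.0358) and 2.62 against carcinomas (SE 0.74, adjusted p = 0.0138). Abcc3, a pump of bile acid and glucuronide conjugates, was at -2.30, -1.59, -1.87, -2.33 and -1.89 in adenomas and between -1.21 and 0.91 (median -0.45) in disseminated cells, and rose by 1.73 (SE 0.51, adjusted p = 0.0204). The other probe of each gene gave -0.11 for Abcc4, on 19 arrays above background, and 0.09 for Abcc3, on 20. The call of Abcc4 against adenomas passed in 6 of 11 fits that each left out 1 array, and was lost without adenoma replicate 1 or 5 or disseminated replicate 1, 3 or 5.

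Abcg2 did not pass in either comparison. It was at 1.56, 1.86, 1.70, 1.31 and 1.52 in adenomas, between 0.63 and 1.52 (median 1.09) in carcinomas and between -0.26 and 1.67 (median 0.40) in disseminated cells. The disseminated samples spread over more than the range of the carcinomas. The log2 difference from adenomas was -0.97 (SE 0.36, limma adjusted p = 0.0593), and that from carcinomas -0.41 (adjusted p = 0.402). The other Abcg2 probe gave 0.02 against adenomas.

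Abcb9 was at -0.44, -0.28, 0.83, 0.61 and 0.39 in adenomas and between -2.42 and -0.44 (median -1.81) in disseminated cells, just below the lowest adenoma at their highest. It fell by 1.80 on the log2 scale against adenomas (SE 0.49, limma adjusted p = 0.0142) and by 1.73 against carcinomas (SE 0.47, adjusted p = 0.00989). Abcb6 was at 0.73, 1.19, 1.45, 1.27 and 0.72 in adenomas and between -1.26 and 0.97 (median 0.12) in disseminated cells. It fell by 1.18 against adenomas (SE 0.40, adjusted p = 0.0421) and by 1.63 against carcinomas (SE 0.38, adjusted p = 0.00417). The call of Abcb6 against adenomas passed in 5 of 11 fits that each left out 1 array, and was lost without disseminated replicate 1, 3 or 5 or adenoma replicate 2, 3 or 4. Abca7, named after its values were seen, lay between -2.29 and 1.23 (median -0.03) in disseminated cells and between -2.11 and -1.21 in adenomas, and rose by 1.47 against adenomas and by 1.27 against carcinomas, the latter call lost without carcinoma replicate 3 or disseminated replicate 3 or 5.

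**Figure D3:**
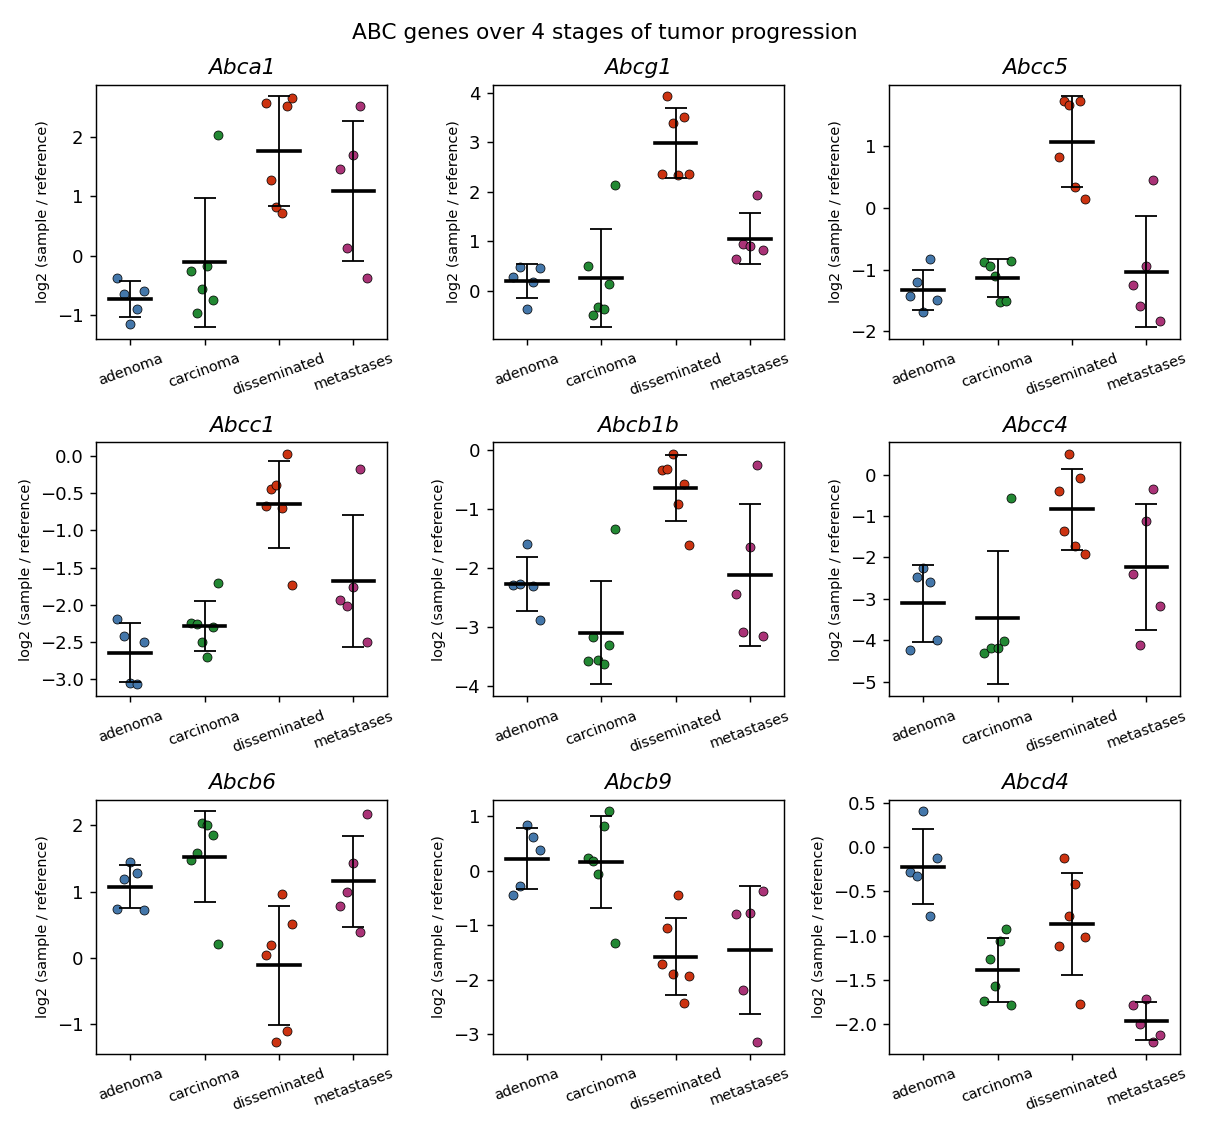
Levels of 9 ABC genes in the progression experiment. Each point is 1 sample, the y axis is the log2 ratio of sample to reference on a scale of its own in each panel, and bars give the group mean ± SD for 5 adenomas, 6 carcinomas, 6 disseminated samples and 5 metastases. For Abcg1 and Abcc5 every disseminated sample lies above every adenoma and carcinoma, and for Abcd4 every adenoma lies above every carcinoma.

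By counts, 8 ABC genes were higher and 2 lower in disseminated cells than in adenomas, against 4.65% and 5.82% of all genes. Against carcinomas 7 were higher and 2 lower, where 11.6% of all genes were called, 5.5% higher and 6.07% lower. The median log2 difference over the 49 genes was 0.04 against adenomas and -0.07 against carcinomas, where all genes had -0.01 and -0.07. In 8 ABC genes the disseminated and adenoma samples did not overlap, where 9.32% of all genes did not. Both comparisons share the disseminated samples. Adenomas and disseminated cells shared 3 slides, within which the differences ran from 2.14 to 3.51 for Abcg1, 2.14 to 3.23 for Abca1, 1.61 to 3.04 for Abcc5, 1.43 to 2.49 for Abcc1 and -2.22 to -1.58 for Abcb9. The ranges were 0.70 to 3.44 for Abcc4, 0.80 to 2.21 for Abcc3, 0.97 to 2.26 for Abcb1b and -2.14 to -0.72 for Abcb6, while Abca7 ran from -0.12 to 2.72 and was above 0 on 2 of the 3 slides. By contrast, carcinomas and disseminated cells shared no slide, so slide and group cannot be told apart there. Among the 9 efflux and conjugate pumps the median was 1.63 against adenomas and 1.07 against carcinomas, with 5 and 4 called. These medians include Abcb1a and Abcc10, above background on no array, and Abcc2, above it on 4 of 22, whose signal was too low to show a change.

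The macrophage markers rose with these genes. All 11 measured markers were called higher in disseminated cells than in adenomas, and 10 against carcinomas, where 4.65% and 5.5% of all genes were. The marker mean was 3.61 to 5.75 (median 4.66) in disseminated cells, -0.54 to 0.08 in adenomas and -0.81 to 4.98 in carcinomas, and the alveolar type 2 list was at 1.77 to 3.84 in disseminated cells against 0.02 to 0.65 in adenomas. Other lists did not overlap between these groups either. The neutrophil mean was 2.84 to 5.03 in disseminated cells and 1.85 to 2.60 in adenomas, the endothelial mean 0.82 to 2.64 and 0.09 to 0.68, and the erythroid mean 1.46 to 2.47 and 0.62 to 1.13. Against adenomas 4 of 6 alveolar type 2, 2 of 5 neutrophil, 3 of 5 endothelial and 2 of 4 erythroid markers were called higher. Against carcinomas the lists without overlap were those of alveolar type 2 cells (-0.14 to 1.18 in carcinomas) and of T and NK cells (0.78 to 2.30 against -0.13 to 0.55). The part of these other cells in the result was not tested. Carcinoma replicate 6, the carcinoma with the macrophage mean of 4.98, was also the highest carcinoma for Abca1, Abcg1, Abcc1, Abcc3, Abcc4 and Abcb1b and the lowest for Abcb6 and Abcb9. For Abcc5 and Abcg1 no carcinoma, replicate 6 included, reached the range of the disseminated samples, and for Abcg1 replicate 6 was just below it. Among the metastases, replicate 4 had the highest macrophage mean, 5.73, and the highest Abca1, 2.52. The lowest mean, 0.91, was in replicate 2, whose Abca1 was 0.14. The lowest Abca1, -0.37, was in replicate 5, whose mean was 1.49, and the other metastases were higher for both. Among the disseminated samples, replicate 4 was lowest for both, at 3.61 and 0.72, and replicate 1, highest for the macrophage mean at 5.75, had an Abca1 of 2.56, below the 2.65 of replicate 6, whose mean was 4.73. With the macrophage mean as a covariate (added once the values were known), 0 of the 49 ABC genes were called against adenomas and 0 against carcinomas by limma, where 0.149% and 1.63% of all genes were. In that fit 6 and 8 ABC genes had an unadjusted p below 0.05, where 8.88% and 16.8% of all genes did. The macrophage mean did not overlap between disseminated cells and adenomas, so in that comparison marker and group cannot be told apart. Carcinomas overlapped disseminated cells on that mean only through carcinoma replicate 6, so there the separation rests on that 1 array.

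**Figure D4:**
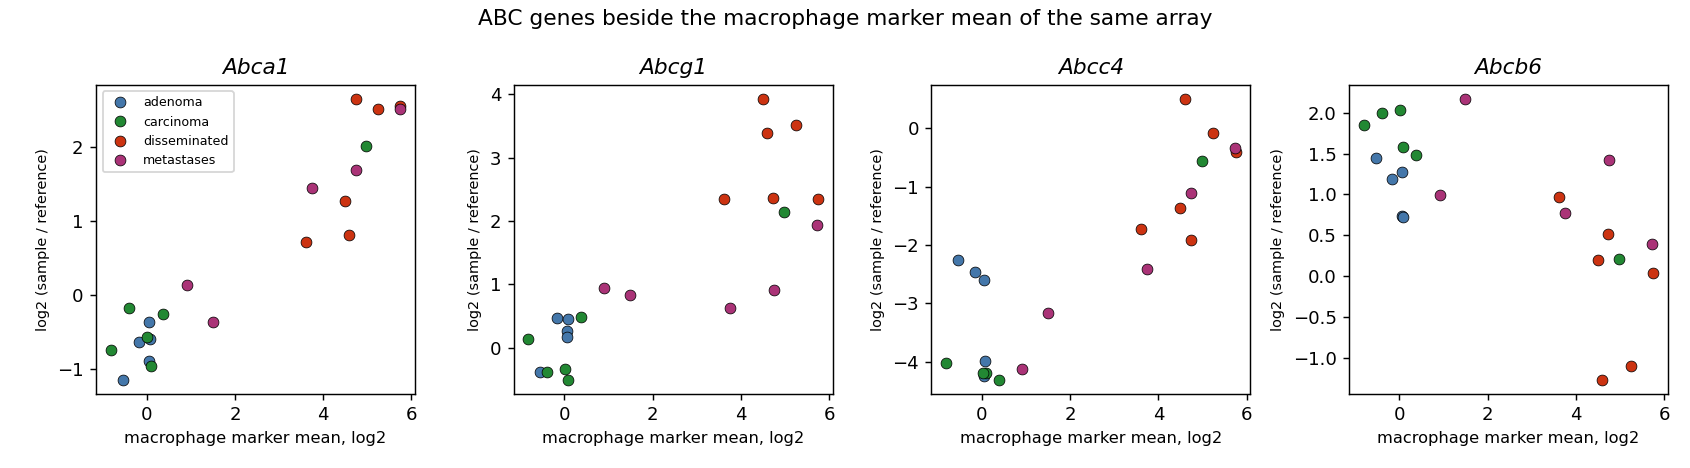
Levels of Abca1, Abcg1, Abcc4 and Abcb6 beside the mean of the macrophage markers on the same array, for the 22 progression arrays. Both axes are log2 ratios of sample to reference, and each point is 1 sample. The carcinoma at 4.98 on the x axis is replicate 6, which lies among the disseminated samples and metastases for Abca1 and Abcc4.

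Genes that work with the ABC exporters were called too. Nr1h3, the liver X receptor that drives transcription of Abca1 and Abcg1, rose by 2.54 in disseminated cells against adenomas (SE 0.42, limma adjusted p = 0.000841), from 0.67 to 1.55 in adenomas to 1.78 to 4.39. Pparg rose by 2.55, Nfe2l2, which drives the antioxidant response, by 2.75 and Soat1, which esterifies cholesterol for storage, by 2.64 (adjusted p = 0.00034), with no overlap for Soat1. In this comparison 4.65% of all genes were called higher and 5.82% lower. Of 13 nuclear receptors and partners 3 were called higher, and of 11 genes of cholesterol handling 5 were higher and 1 lower, namely Apoe at 2.12, Pltp at 2.67, Npc1 at 2.21, Nceh1 at 2.59 and Soat1, with Apoc1 at -2.44. Of 9 genes of glutathione supply, breakdown and conjugation 3 were higher and 2 lower. Gsr, glutathione reductase, rose by 1.97, Gclc by 1.36 and Gstm1 by 2.25, while Ggt1, which breaks down exported glutathione, fell by 3.03 and Gsta4 by 1.18. Against carcinomas the called genes were Nr1h3 at 2.21, Pparg at 2.68, Nfe2l2 at 2.46, Mylip at 1.29, Pltp at 2.39, Npc1 at 1.03, Soat1 at 2.71, Nceh1 at 2.05, Gclc at 1.51, Gsr at 3.36 and Gstm1 at 1.87 as higher, and Apoc1 at -2.29, Ggt1 at -1.74, Gsta4 at -1.05 and the drug and cation carrier Slc47a1 at -2.82 as lower. The carcinoma and adenoma comparisons share the disseminated samples. The samples with these levels were those with the marker means of macrophages and other cells given above.

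In metastases 4 ABC genes were called higher and 2 lower against adenomas, where 14.6% of all genes were called, and 3 higher and 1 lower against carcinomas, where 10.1% were. Abce1, which splits ribosomes after termination, and Abcf2 rose against both adenomas and carcinomas, and Abcf3 rose against adenomas. Abcb9 fell against both, and Abcd4 fell against adenomas. Of the drug efflux pumps, Abcc1 passed against adenomas with a change under 2-fold, 1 of 14 ABC genes that passed at any size where 28.7% of all genes did, and Abcb1b and Abcg2 did not pass against either.

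Abce1 was at -0.27, -0.10, 0.16, -0.23 and -0.63 in metastases, at -1.40, -1.54, -1.52, -1.35 and -1.67 in adenomas and between -1.73 and -1.20 (median -1.48) in carcinomas. Every metastasis was above every primary tumor. The rise was 1.28 against adenomas (SE 0.23, limma adjusted p = 0.000393) and 1.26 against carcinomas (SE 0.22, adjusted p = 0.000697). On the 3 slides that held both carcinomas and metastases it was 1.26 to 1.31. The other Abce1 probe gave -0.77 against adenomas, and with the mean of both probes Abce1 was not called against adenomas (0.26, adjusted p = 0.228) or carcinomas (0.69).

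Abcf2 was at -0.02, 0.37, 0.33, 0.35 and -0.05 in metastases, at -0.86, -0.54, -1.43, -0.86 and -0.63 in adenomas and between -1.95 and -0.46 (median -0.75) in carcinomas, again with no overlap. It rose by 1.06 against adenomas (SE 0.28, limma adjusted p = 0.00714) and by 1.16 against carcinomas (SE 0.26, adjusted p = 0.00439), and its other probe gave 1.16 against adenomas. Abcf3 was at -0.26, 0.24, 0.37, 1.0 and -0.30 in metastases and at -0.51, -0.62, -1.63, -2.20 and -0.86 in adenomas. The groups did not overlap and the rise was 1.37 (SE 0.38, adjusted p = 0.0106), while the other Abcf3 probe gave -0.19. Without adenoma replicate 3 Abcf2 rose by 0.92 against adenomas, and without carcinoma replicate 1 by 0.96 against carcinomas, under 2-fold in both.

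Abcd4, with the levels given above, fell by 1.75 on the log2 scale in metastases against adenomas (SE 0.26, limma adjusted p = 9.08e-05). Abcb9 was at -0.79, -2.20, -0.78, -3.15 and -0.37 in metastases and between -1.32 and 1.09 (median 0.20) in carcinomas. It fell by 1.68 against adenomas (SE 0.51, adjusted p = 0.0185) and by 1.61 against carcinomas (SE 0.49, adjusted p = 0.0231), with overlap in both. Abca1 was at 1.45, 0.14, 1.69, 2.52 and -0.37 in metastases and rose by 1.81 against adenomas (SE 0.57, adjusted p = 0.0224). Abca5 was at 1.19, 2.87, 0.34, 0.93 and -0.60, and rose by 1.53 against carcinomas (SE 0.54, adjusted p = 0.0485), while its other probes gave between 0.06 and 1.02. Abca5 kept its call in 1 of 11 fits that each left out 1 array, Abcb9 in 7 of 11 against carcinomas, and Abca1 in 7 of 10. Without metastasis replicate 4 the differences were 1.45 for Abca1 and -1.25 for Abcb9 against adenomas, and neither passed.

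Abcc1 was at -1.94, -2.02, -1.77, -0.17 and -2.51 in metastases. Replicate 4 stood far above the others, and the difference from adenomas was 0.97 (SE 0.35, limma adjusted p = 0.0458). The other Abcc1 probes gave -0.87 and -0.90 in that comparison, in the opposite direction. Abcb1b was at -2.44, -3.08, -1.64, -0.25 and -3.16, a difference of 0.15 from adenomas (adjusted p = 0.858) and of 0.98 from carcinomas (adjusted p = 0.153). Abcg2 was at 1.63, 0.71, 1.63, -0.32 and 1.44, a difference of -0.57 from adenomas (adjusted p = 0.271) and of -0.01 from carcinomas (adjusted p = 0.987), and its other probe gave 1.19 and 1.21.

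**Figure D5:**
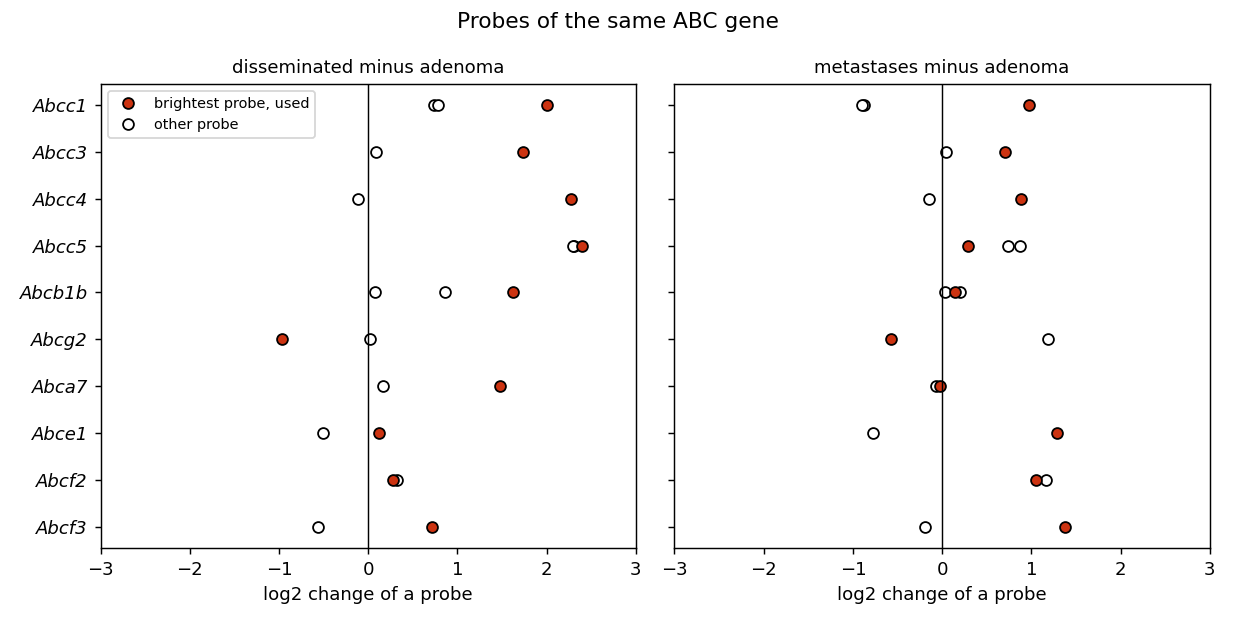
Log2 differences of single probes of 10 ABC genes with more than 1 probe, for disseminated cells and for metastases against adenomas. Filled points are the brightest probe, whose values are used for the gene, and open points are the other probes. The probes of Abcc5 lie together at 2.30 to 2.40 in disseminated cells, whereas those of Abcc1 in metastases lie on both sides of 0, at 0.97, -0.87 and -0.90.

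By direction, 6.08% of all genes were called higher and 8.47% lower in metastases than in adenomas, beside the 4 and 2 ABC genes, and 4.75% and 5.31% against carcinomas, beside 3 and 1. Groups did not overlap in 11 ABC genes against adenomas and in 6 against carcinomas, where 21.5% and 13.6% of all genes did not. The median log2 difference was 0.07 and -0.01, against 0.01 and -0.05 for all genes. Of the 4 genes that act at the ribosome 3 were called higher against adenomas, with a median of 1.17. These are values of the probes used, and the other probes of Abce1 and Abcf3, given above, did not rise. Mvp, the major vault protein, rose by 1.89 against adenomas and by 1.70 against carcinomas, and Tap1 by 1.87 (limma adjusted p = 0.0195) against adenomas and by 2.65 against carcinomas, with no overlap in any of these. Tap2 rose by 1.24 against carcinomas. Nfe2l2 rose by 2.24 and 1.96 against adenomas and carcinomas, and the retinoid X receptor Rxrb fell by 1.28 and 1.03, Ggt1 by 3.05 and 1.77 and Apoc1 by 2.83 and 2.68. Npc2 rose by 3.14 and 2.05. Against adenomas alone, Apoe rose by 2.72 and Npc1 by 1.87, and Nr1h2 fell by 1.76, Scarb1 by 1.04 and Gstp1 by 1.43, and against carcinomas alone Gsr rose by 1.63. Whether these differed between the comparisons was not tested. The macrophage markers differed here too: 10 of 11 were called higher in metastases than in adenomas and 4 higher than in carcinomas, beside the shares of all genes called higher given above. The macrophage mean of metastases, from 0.91, lay above all adenomas, so marker and group cannot be told apart in that comparison. The alveolar type 2 mean was 0.99 to 2.39 in metastases against 0.02 to 0.65 in adenomas, with 2 of 6 markers called higher, and the endothelial mean 0.74 to 1.04 against 0.09 to 0.68, with 1 of 5 markers passing as higher, under 2-fold. The part of alveolar and endothelial cells was not tested. With the macrophage mean in the fit 4 ABC genes were called against adenomas, where 6.64% of all genes were. There Abce1 rose by 1.23 and Abcd4 fell by 1.42, Abcb1b and Abcb4 fell by 1.31 and 1.20, and Abca1 (-0.054), Abcb9, Abcf2 and Abcf3 were not called. Against carcinomas Abce1 and Abcf2 were called in that fit, where 3.5% of all genes were. Adenomas shared no slide with metastases, so slide and group cannot be told apart there.

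Metastases and disseminated cells, both from the lung, were set against each other last. Abcc5, Abcg1, Abca7, Abcb1b, Abcc1 and Abcd4 fell in metastases, and Abce1 and Abcb6 rose. These 8 genes were called where 7.12% of all genes were, with 2 higher (3.43% of all genes) and 6 lower (3.69%). The median over the 49 genes was -0.00, and that of all genes 0.01.

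Abcc5 was at -1.25, -1.60, -0.93, 0.45 and -1.83 in metastases, of which only replicate 4 entered the disseminated range, and it fell by 2.10 on the log2 scale (SE 0.36, limma adjusted p = 0.000939). Abcg1 was at 0.63, 0.94, 0.91, 1.94 and 0.83, below every disseminated sample, and fell by 1.93 (SE 0.41, adjusted p = 0.00429). Abcb1b fell by 1.48 (SE 0.47, adjusted p = 0.0445) and Abcc1 by 1.03 (SE 0.34, adjusted p = 0.0497), both close to the threshold, each kept in 2 of 11 fits that left out 1 array, and the other Abcc1 probes gave -1.61 and -1.68.

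Abca7, at -2.02, -2.29, -2.01, -1.12 and -1.72 in metastases, fell by 1.49 (SE 0.42, limma adjusted p = 0.0234), and Abcd4 fell by 1.09 (SE 0.25, adjusted p = 0.00666). Abce1 rose by 1.16 for the probe used (SE 0.22, limma adjusted p = 0.00181). Abcb6, at 0.78, 1.0, 1.42, 0.39 and 2.17 in metastases, rose by 1.26 (SE 0.40, limma adjusted p = 0.0429). Abcg2 differed by 0.40 (adjusted p = 0.523). Among the 8 genes the groups overlapped in all but Abcg1. Abca7 kept its call in 6 and Abcb6 in 3 of 11 fits that left out 1 array, and Abcd4 fell by 0.94 without disseminated replicate 2. Without disseminated replicate 2 the comparison called 3 ABC genes, where 4.9% of all genes were called, and without disseminated replicate 6 it called 12, where 11% were.

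Of the partner genes, Nr1h3 fell by 2.50, Nr1h2 by 1.21, Pparg by 2.51, Soat1 by 2.28, Scarb1 by 1.04, Gclc by 1.62, Gsr by 1.73 and Gstm1 by 2.70 from disseminated cells to metastases, and Tap1 rose by 1.91, Tap2 by 1.12 and Mvp by 1.34. The macrophage mean was 3.75, 0.91, 4.75, 5.73 and 1.49 in metastases, within or below the disseminated range, and no macrophage marker was called higher and 1 lower. Other lists were lower in metastases. The erythroid mean was 0.85 to 1.42 in metastases and 1.46 to 2.47 in disseminated cells, with no overlap. Medians were 2.32 and 4.41 for neutrophils, 0.87 and 1.87 for endothelium, 1.88 and 2.81 for alveolar type 2 cells and 0.48 and 1.38 for T and NK cells, while that of mammary epithelium was higher, 2.31 against 0.75. The part of these cells in the result was not tested. With the macrophage mean in the fit, also added once the values were known, 6 of the 49 ABC genes were called by limma, where 7.94% of all genes were. Among them Abcc5, Abcg1, Abca7 and Abcd4 were still called lower and Abce1 higher. The groups shared no slide, so slide and group cannot be told apart.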

How the data were processed

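RNA of 38 samples (16 in the chemotherapy and 22 in the progression experiment) was hybridised to 2-colour Agilent whole mouse genome arrays. The authors scanned the arrays on an Agilent scanner and read the images with Feature Extraction 10.7, and the deposited scanner files give the intensity of each of 45018 spots, 43379 of them not controls. RNA was amplified in 1 round for chemotherapy and in 2 rounds for progression samples, so levels were not compared between the experiments. The deposited log2 ratio table of the authors, with array medians near 0, served as an alternative. There were no dye swaps, so dye bias of a probe was not removed but is common to all arrays. The number of arrays limits the precision.

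Mean foreground and median background intensity were corrected with normexp (offset 50), normalized by loess within arrays and by quantiles between the arrays of an experiment in limma 3.58.1 under R 4.3.3. Control and outlier spots had no weight and outlier spots were left out. Repeat spots were averaged per probe. The brightest probe of a gene over the experiment (highest mean log2 signal) stood for it. Of 41174 probes 23075 were named through their accession and 18099 kept the name in the file, and 77 of the 93 ABC probes had a symbol in the reference table. All groups of an experiment entered 1 limma fit, with no covariate, and p-values were adjusted by Benjamini-Hochberg over 28784 gene names. A gene passed at an adjusted p below 0.05 and was called if it also changed at least 2-fold. The script was tested on simulated data.

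The genes named were Abcb1a, Abcb1b, Abcc1 and Abcg2 throughout, the 3 lowest p-values of each chemotherapy comparison, the called ABC genes (at most the 6 largest rises and 6 largest falls of a comparison) and the called partner genes. Members, lists and rules were chosen with earlier results of these data known. The lists of partner genes held ABC proteins of other names, nuclear receptors, cholesterol handling, channel pores of the sulfonylurea receptors, peroxisome import, glutathione supply and conjugation, and other carriers. Marker lists covered mammary, alveolar and other lung epithelium, endothelium, fibroblasts, erythroid cells and the immune cells (macrophages, neutrophils, T, NK and B cells). Group labels came from the submitters. The samples they call resistant were matched to the relapsed tumors of the study because no other treated group remained. The study gives equal group sizes, and the sizes used here are those of the labels. Alternatives changed the background offset, the scanner's processed signals, normalization, probe choice, the samples in the fit, slide and replicate blocks, the test, the thresholds, each array in turn and, added after seeing the data, a macrophage covariate and each other probe of a gene. Some single-gene results are not reported here.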

Additional observations from a re-analysis of the deposited data

Results flagged for a closer look

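A sample was singled out where its gap to the next sample was large for the range of its group (Dixon's 95% limit), which chance alone does in about 1 of 20 groups. It happened in 9 of 91 groups of ABC gene values and in 4 of 70 groups of marker-list means, and no cause was tested.

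Carcinoma replicate 6 accounted for 7 of these 13. It was the highest carcinoma for Abca1 at 2.02 (next -0.17), Abcb1b at -1.33 (next -3.17), Abcc3 at 0.84 (next -1.14) and Abcc4 at -0.56 (next -4.02), and the lowest for Abcb6 at 0.20 (next 1.48). Its macrophage marker mean was 4.98 (next 0.38) and its neutrophil marker mean 3.74 (next 2.58). Without it 11 ABC genes were called in disseminated cells against carcinomas and 7 in metastases against carcinomas, in place of 9 and 4, where 14.3% and 13.4% of all genes were called in place of 11.6% and 10.1%.

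Of the other samples, relapsed replicate 1 stood above the rest for Abca1 at 1.81 (next 0.57), adenoma replicate 4 for Abca7 at -1.21 (next -1.87) and metastasis replicate 4 for Abcg1 at 1.94 (next 0.94). Carcinoma replicate 1 stood below the rest for Abcf3 at -1.61 (next -0.61). The neutrophil marker mean was low in residual replicate 6 at 1.82 (next 2.45) and in disseminated replicate 6 at 2.84 (next 4.29).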

How the results depend on the processing

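No chemotherapy comparison called an ABC gene under any alternative. The macrophage covariate, added after seeing the data, called 2 ABC genes in carcinomas against adenomas (1 as reported) and 0 in disseminated cells against adenomas (10) or carcinomas (9). In metastases it called 4 against adenomas (6), 2 against carcinomas (4) and 6 against disseminated cells (8). Where adenomas are compared with disseminated cells or metastases the macrophage mean did not overlap, so this fit cannot tell marker and group apart. In that fit the sign turned for Abca1 in disseminated cells against adenomas (-0.15) and carcinomas (-0.32) and in metastases against adenomas (-0.054), for Abcb1b in disseminated cells against adenomas (-0.44) and in metastases against adenomas (-1.31) and carcinomas (-0.14), in disseminated cells against adenomas for Abcb6 (0.16), Abcc3 (-0.51) and Abcc4 (-0.99), and for Abcg2 in metastases against carcinomas (0.23).

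With the mean of a gene's probes 6 were called in disseminated cells against adenomas, and in metastases 4 against adenomas, 2 against carcinomas and 5 against disseminated cells (8). There Abcc1 turned to -0.43 in carcinomas against adenomas, to -0.27 in metastases against adenomas and to -0.040 in residual against untreated tumors, and Abcg2 to 0.31 and 0.60 in metastases against adenomas and carcinomas. Processed signals called 11 in metastases against adenomas. For metastases against disseminated cells, fitting only those groups called 4, a random slide block 5 and the equal-variance t-test 5. At an adjusted p below 0.01 the counts were 4 and 6 for disseminated cells against adenomas and carcinomas and 3, 2 and 4 for metastases against adenomas, carcinomas and disseminated cells. With no fold minimum they were 5 for carcinomas against adenomas, and 14 and 7 for metastases against adenomas and carcinomas. A fixed slide block could not be fitted for 4 of the progression comparisons.

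Differences near 0 turned sign elsewhere. Abcb1b in metastases against adenomas was -0.054 with Aquantile and with no normalization between arrays, and -0.32 to 0.41 with each array left out. In residual against untreated tumors it was -0.0067 with offset 0, -0.046 with processed signals and -0.056 to 0.13 with each array left out, and in relapsed against untreated tumors 0.12 with a fixed slide block, where Abcc1 in residual against untreated tumors was -0.053. Abcg2 in metastases against carcinomas was 0.010 with Aquantile and with no normalization between arrays, 0.034 in the deposited ratios and -0.17 to 0.32 with each array left out, and in relapsed against untreated tumors -0.23 to 0.069.

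Replicate numbers are shared between groups, but were not taken to pair the samples. Correlations of the deviations of same-numbered samples ran from -0.41 to 0.42 in residual against untreated tumors, with 2 of 6 pairs over 0.1, and from -0.14 to 0.38 in relapsed against untreated tumors, with 3 of 4 pairs over 0.1. No comparison had all of its pairs over 0.1, but so few pairs cannot exclude a pairing. With the replicate block 6 ABC genes were called in disseminated cells against adenomas, and Abcg2 turned to 0.050 in metastases against carcinomas and to 0.050 in relapsed against untreated tumors.

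With each array left out the counts were 8 to 12 and 8 to 11 for disseminated cells against adenomas and carcinomas. For metastases they were 4 (without adenoma replicate 3) to 8 against adenomas, 2 to 7 (without carcinoma replicate 6) against carcinomas, and 3 (without disseminated replicate 2) to 12 (without disseminated replicate 6) against disseminated cells. Over all genes, 27 called in residual against untreated tumors became 1 with a fixed slide block and 57 with the macrophage covariate, and 2048 in metastases against disseminated cells became 710 with only those groups fitted. Of the values of named, called genes under the alternatives, 793 kept direction and call, 151 lost the call and 7 turned sign. For the ABC genes not well above background on any array, the signal was too low to show a change.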
